A study of Mus musculus with 17 samples.

Results

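Described here are 10 growth factor genes of the insulin-like growth factor (IGF) axis and the platelet-derived growth factor (PDGF) family and its neighbours, out of 38087 genes measured by RNA sequencing in myeloid cells sorted from injured mouse muscle. They were chosen by symbol: Igf1, Igf1r, Igfbp4, Igfbp7, Pdgfa, Pdgfb, Pdgfc, Hgf, Vegfb and Fgf2, each on 1 row of the table. A log2 value of 5 was reached somewhere by 9 of them, and Fgf2 stayed below it. The mice were DBA/2J males, 3 months old, and the injury was made in tibialis anterior with cardiotoxin, a venom component that destroys myofibres. The 6 groups were neutrophils on day 1 (2 samples), macrophages with high surface Ly6C on days 1, 2 and 4 (3 samples each), and macrophages with low surface Ly6C on days 2 and 4 (3 samples each). All of them came from injured muscle, and no label names an altered allele or a drug. The labels do not give the gates of the sort, the number of mice behind a sample, or whether samples came from separate mice.

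IGF-I acts on muscle precursors and fibres through the receptor tyrosine kinase IGF1R, and secreted binding proteins hold it in the matrix or in complexes. PDGF ligands are dimers that signal through PDGFRα and PDGFRβ on mesenchymal and mural cells. HGF wakes quiescent muscle stem cells through the receptor MET, VEGF-B binds the endothelial receptor FLT1, and FGF2 is a mitogen of muscle precursors and fibroblasts. Macrophages are a known source of IGF-I in regenerating muscle.

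The deposited table holds 1 log2 value of normalised reads per group and none per sample. No value below therefore has an SD, and no difference could be set against the spread between samples. Neither can neighbours in an order of levels be called different or alike. A comparison took in each gene that reached a log2 value of 5 in 1 or more of its groups, and called it apart at 2-fold or more, which is 1 on the log2 scale. A log2 value of 5 stood for about 31.2 to 77.6 reads in a library. This estimate rests on the spacing of low values, and 12.3% to 46.0% of those in a column lay on the spacing used. In bulk samples of sorted cells, fewer expressing cells and less RNA per cell cannot be told apart.

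The groups followed their labels in part. The neutrophil genes S100a8, S100a9 and Cxcr2 had log2 values of 14.35, 15.49 and 12.37 in the neutrophil column. Each was higher there than in any macrophage column. Ly6g was at 3.48 there and listed at 0 in the other 5. Of the 12 genes on the neutrophil list, 8 were compared with Ly6C high macrophages of day 1. For 7 of them the neutrophil value exceeded the macrophage one by 2-fold or more. The remaining gene, Mmp8, was at 9.30 in neutrophils and 9.21 in those macrophages. Ltf reached 5 in the neutrophil column alone and so could not come out higher in macrophages. Mpo, not compared, was at 0 in neutrophils and 2.91 in those macrophages. The macrophage genes Csf1r, Emr1 and C1qa were also high in that column, at 13.27, 12.22 and 10.61. Ly6C high macrophages of day 1 had 13.52, 12.34 and 9.55. Of 8 macrophage markers compared between these columns, 3 (C1qa, C1qb and C1qc) were at least 2-fold higher in neutrophils. Mrc1 was lower there, at 12.50 against 14.72, and 4 were neither. Over all genes 16.1% were higher in neutrophils and 16.6% lower. Values of the neutrophil column are therefore those of the sort labelled neutrophil, and the range of each gene is given with and without it. Ly6c2 was at 9.87 and 6.16 in Ly6C high and low macrophages of day 2, and at 10.56 and 4.64 on day 4. For Ly6c1 these values were 7.67 and 3.64, and 9.71 and 3.93. On each day, 5 of the 6 classical monocyte markers had a Ly6C low value below the Ly6C high one by 2-fold or more. Of the 6, 1 on day 2 and 3 on day 4 reached 5 in Ly6C high cells alone. Such markers could not come out higher in Ly6C low cells. Markers of stromal cells were highest in Ly6C high macrophages of day 4. There the median log2 value was 10.88 for 11 fibroblast markers, 8.59 for 10 endothelial markers and 7.47 for 8 pericyte and smooth muscle markers, against 6.42, 6.24 and 5.03 in Ly6C high macrophages of day 2.

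Because the data are transcript levels, the sequence context shown is the stretch before the start of 4 of the genes. These are the binding protein pair Igfbp4 and Igfbp7, whose levels differed in opposite directions between the subsets on day 2, Pdgfc, which was higher in Ly6C low cells on both days, and Vegfb, whose profile was closest to that of Igfbp4 among the 10. Each line holds the 250 bases before the RefSeq start on GRCm38.p6, 5′ to 3′ on the gene's strand. Capitals mark 3 motifs searched on both strands: AGGTCA, the half-site of many nuclear receptors, including the PPARγ of the series title, GGGCGG, the GC box, and TATAAA, the TATA box. The windows are chr11:99040994-99041243 on the plus strand for Igfbp4, chr5:77408046-77408295 on the minus strand for Igfbp7, chr3:81036166-81036415 on the plus strand for Pdgfc and chr19:6987652-6987901 on the minus strand for Vegfb.
Igfbp4: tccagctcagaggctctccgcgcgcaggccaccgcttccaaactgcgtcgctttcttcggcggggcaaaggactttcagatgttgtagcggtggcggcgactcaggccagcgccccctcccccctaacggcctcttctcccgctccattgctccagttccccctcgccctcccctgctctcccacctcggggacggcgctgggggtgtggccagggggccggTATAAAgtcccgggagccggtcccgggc
Igfbp7: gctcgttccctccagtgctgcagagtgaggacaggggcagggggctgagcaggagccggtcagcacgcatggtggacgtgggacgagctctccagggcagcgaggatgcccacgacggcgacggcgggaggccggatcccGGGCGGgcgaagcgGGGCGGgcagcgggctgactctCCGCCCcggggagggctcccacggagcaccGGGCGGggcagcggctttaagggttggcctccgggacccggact
Pdgfc: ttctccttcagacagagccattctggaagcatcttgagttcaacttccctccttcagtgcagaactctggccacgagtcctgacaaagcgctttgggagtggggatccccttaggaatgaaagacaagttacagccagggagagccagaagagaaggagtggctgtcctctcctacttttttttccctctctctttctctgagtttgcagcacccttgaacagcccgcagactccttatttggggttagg
Vegfb: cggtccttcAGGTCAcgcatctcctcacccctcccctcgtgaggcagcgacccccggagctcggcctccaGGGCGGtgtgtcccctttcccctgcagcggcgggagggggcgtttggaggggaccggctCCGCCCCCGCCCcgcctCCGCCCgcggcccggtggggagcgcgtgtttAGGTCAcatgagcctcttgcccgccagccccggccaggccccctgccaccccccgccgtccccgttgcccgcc

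The binding protein genes differ in this stretch. The Igfbp4 window has a TATAAA that begins 28 bases before the start and no GGGCGG, while the Igfbp7 window has 4 matches to GGGCGG and no TATAAA. Neither holds AGGTCA. The Vegfb window holds AGGTCA at 241 and 73 bases before the start and 4 matches to GGGCGG, and the Pdgfc window holds none of the 3 motifs. The G and C content was 69.2% for Igfbp4, 74% for Igfbp7, 50.8% for Pdgfc and 76.4% for Vegfb, against a median of 52.4% over 32851 windows of the same length. Of the 10 genes, 9 were matched to a RefSeq start, and Pdgfb was not. Their 11 windows held AGGTCA in 27.3% (Igf1, Igf1r and Vegfb), GGGCGG in 54.5% and TATAAA in 9.09%, against 14.0%, 32.7% and 12.4% of all windows. The windows of Igf1, Pdgfa and Fgf2 and 1 of those of Hgf overlap annotated exons, and the 4 printed ones do not. No 2 matches overlapped. A match is a string of letters and not a measured binding site.

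Igf1, which encodes the ligand IGF-I, had the widest range of the ligand genes among the 10. It lies on chromosome 10 from 87858265 to 87937042 on the plus strand (ENSMUSG00000020053, GRCm38). Its log2 value was 9.95 in neutrophils, 5.04, 6.90 and 9.72 in Ly6C high macrophages on days 1, 2 and 4, and 9.26 and 10.85 in Ly6C low macrophages on days 2 and 4. Ly6C high macrophages of day 1 were the lowest group and Ly6C low macrophages of day 4 the highest, 56.1-fold apart, and leaving out the neutrophil column does not change this range. Within Ly6C high cells the level was higher on each later day, by 1.86 on the log2 scale from day 1 to day 2 and by 2.82 from day 2 to day 4. Ly6C low cells were higher than Ly6C high cells by 2.36 (5.13-fold) on day 2 and by 1.13 (2.19-fold) on day 4. The subset difference was thus smaller on day 4, by 1.23. Macrophage markers were also at least 2-fold higher in Ly6C low cells, 3 of 8 on day 2 and 4 of 8 on day 4. None was lower, and the median differences of the 8 were 0.56 and 1.01. Over all genes 3.71% and 2.44% were higher, and 4.03% and 8.93% lower. The part of cell make-up in these Igf1 differences was not tested. Neutrophils were 30.1-fold higher in Igf1 than Ly6C high macrophages of the same day, in the column where Csf1r was at 13.27, and the part of macrophage RNA in this value was not tested.

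Between the 2 IGF ligands, per kilobase of exon, Igf1 made up 99.3% of the summed level in neutrophils and 99.6% in Ly6C low macrophages of day 2. The share was 67.5%, 89.6% and 77.9% in Ly6C high macrophages of days 1, 2 and 4, and 93.0% in Ly6C low macrophages of day 4. The other ligand, Igf2, reached 7.11 and 6.33 on the log2 scale in the Ly6C high and low groups of day 4 and was at 3.20 or less elsewhere. A gene annotated on the opposite strand, Igf1os, was at 2.34 or lower in every group, and whether reads were counted by strand is not stated.

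Igf1r, the signalling receptor for IGF-I, differed most between neutrophils and macrophages. The gene is on chromosome 7 from 67952827 to 68233668 on the plus strand (ENSMUSG00000005533). The log2 value was 9.49 in neutrophils, 7.79, 7.01 and 7.28 in Ly6C high macrophages on days 1, 2 and 4, and 7.23 and 7.34 in Ly6C low macrophages on days 2 and 4. Its range was 5.58-fold with the neutrophil column and 1.72-fold over the 5 macrophage groups. The 2 subsets were 0.22 apart on day 2 and 0.06 on day 4 on the log2 scale, so the ligand and its receptor showed unlike patterns.

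Insr, the insulin receptor gene and the closest relative of Igf1r, was set beside it per kilobase of exon. In neutrophils and in Ly6C high macrophages of day 1 the receptors had near levels, 5.42 and 3.72 for Igf1r and 5.37 and 3.68 for Insr on the log2 scale. On day 4 Insr was at 4.93 in Ly6C high and 5.51 in Ly6C low macrophages, against 3.21 and 3.27 for Igf1r. Igf2r, which takes IGF-II to lysosomes and does not carry the mitogenic signal, was above both in every group, at 7.75 to 8.47 per kilobase. Irs2, an adaptor below these receptors, had a log2 value of 8.20 in neutrophils and from 8.95 to 10.22 in the macrophage groups, while the adaptor Irs1 was at 0 in neutrophils, Ly6C high macrophages of day 1 and Ly6C low macrophages of day 2 and did not reach 5 elsewhere.

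**Figure D1:**
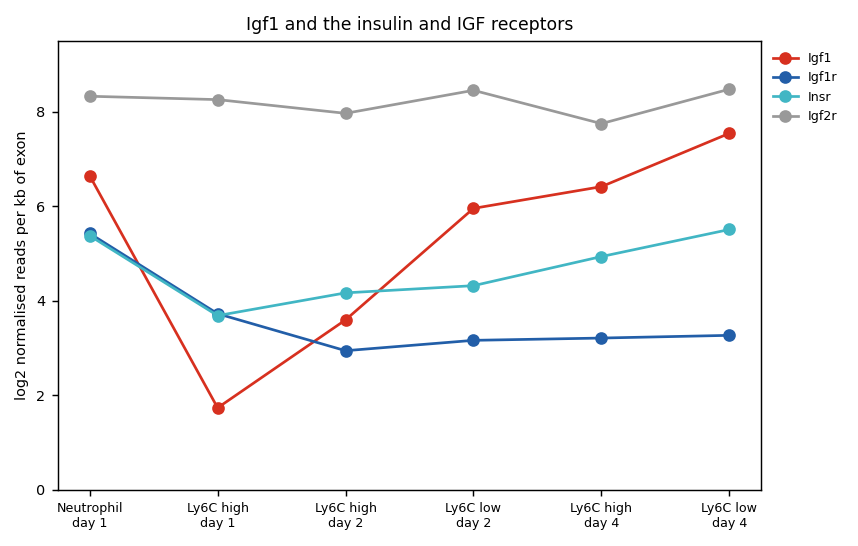
Log2 normalised reads per kilobase of exon (vertical axis) of Igf1, Igf1r, Insr and Igf2r in the 6 groups (horizontal axis), 1 authors' value per gene and group with no error bars. The lines only join points of a gene. Igf1 runs from 1.73 in Ly6C high macrophages of day 1 to 7.54 in Ly6C low macrophages of day 4, while Igf1r stays between 2.94 and 3.72 in the macrophage groups.

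Igfbp4, a binding protein that keeps IGF-I from its receptor until it is cleaved, was higher on day 4 than on day 1. The gene lies on chromosome 11 from 99041244 to 99054392 on the plus strand (ENSMUSG00000017493). Log2 values were 9.94 in neutrophils, 9.21, 9.84 and 11.52 in Ly6C high macrophages on days 1, 2 and 4, and 11.00 and 11.31 in Ly6C low macrophages on days 2 and 4. The 3 highest groups were the Ly6C low cells of both days and the Ly6C high cells of day 4. The subset difference was 1.16 in favour of Ly6C low cells on day 2 and -0.21 on day 4, a change of -1.37. From day 2 to day 4 the difference was 1.68 in Ly6C high and 0.31 in Ly6C low cells.

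Igfbp7, a secreted matrix protein with low affinity for IGFs that is abundant in blood vessels, had the widest range of the 10 genes. It lies on chromosome 5 from 77349240 to 77408041 on the minus strand (ENSMUSG00000036256). In neutrophils the log2 value was 4.12. Ly6C high macrophages had 8.20, 8.35 and 11.63 on days 1, 2 and 4, and Ly6C low macrophages had 5.59 and 8.09 on days 2 and 4. Each Ly6C high value was above both Ly6C low values. The range was 182-fold in all groups and 65.9-fold among the macrophage groups. Ly6C low cells were lower by 6.78-fold on day 2 and by 11.7-fold on day 4, the opposite direction to Igf1 and Pdgfc. In both subsets the gene was higher on day 4 than on day 2, by 3.28 in Ly6C high and 2.49 in Ly6C low cells. Polr2b, on the opposite strand, shares 85 bases with the end of the gene and varied only from 8.70 to 9.31.

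Markers of stromal cells were also lower in Ly6C low cells. In Ly6C low against Ly6C high macrophages of day 4, 9 of 10 endothelial markers and 11 of 11 fibroblast markers were at least 2-fold lower. Of 8 pericyte and smooth muscle markers 6 were lower and 1 was higher. Over all genes 8.93% were lower and 2.44% higher. On these lists, 5 endothelial and 3 pericyte and smooth muscle markers reached the filter in Ly6C high cells alone. Such markers could not come out higher. On day 4 the log2 of the summed endothelial level was 12.56 in Ly6C high and 9.74 in Ly6C low cells, against 9.14 to 10.13 in the other 4 columns. Vwf alone was at 8.93 in neutrophils, where the sum was 9.55, and at 8.57 in Ly6C low cells of day 4. The endothelial medians were 8.59 and 5.16 in Ly6C high and Ly6C low cells of day 4, against 3.26 in neutrophils and 4.83 to 6.24 in the remaining columns. For fibroblast markers the sums were 15.97 and 13.92, against 6.39 to 10.65. Pericyte and smooth muscle markers summed to 11.75 and 10.01, against 8.94 or less. No endothelial or pericyte marker was at 0 in any column, and Dpt in neutrophils was the only fibroblast marker at 0. The endothelial marker Cdh5 had log2 values of 4.28 in neutrophils, 7.85, 7.67 and 10.56 in Ly6C high cells of days 1, 2 and 4, and 6.08 and 6.25 in Ly6C low cells of days 2 and 4. From day 2 to day 4 in Ly6C low cells, Igfbp7 was higher by 2.49. At least 2-fold higher were 11 of 11 fibroblast markers, 4 of 5 pericyte and smooth muscle markers and none of the 5 endothelial markers compared. Over all genes 9.23% were higher and 2.16% lower. On these lists, 7 fibroblast and 2 pericyte and smooth muscle markers reached the filter on day 4 alone. Such markers could not come out lower. The part of these cells in the Igfbp7 values was not tested.

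**Figure D2:**
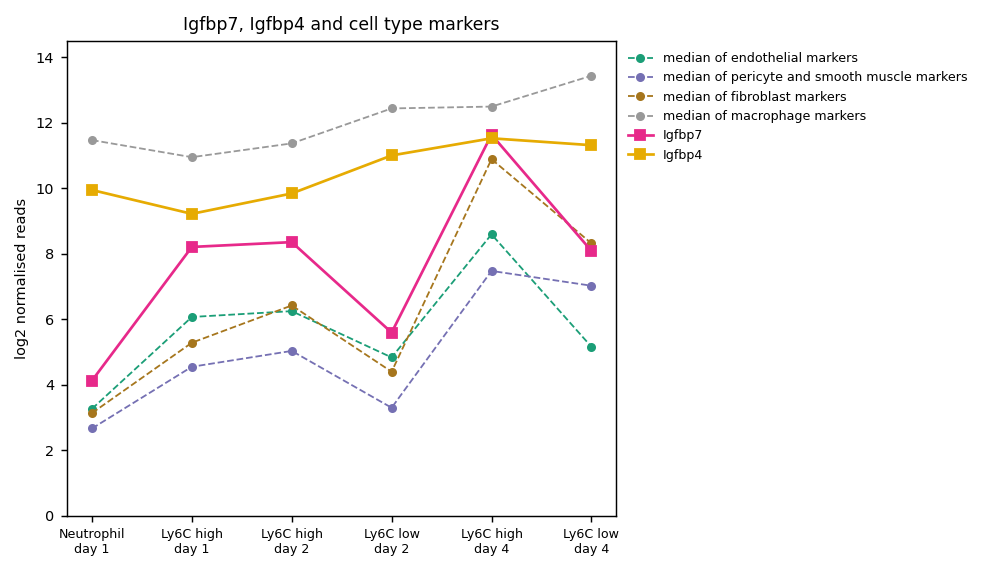
Log2 normalised reads (vertical axis) of Igfbp7 and Igfbp4 and the median over the markers of 4 cell types in the 6 groups (horizontal axis), with no error bars. The lines only join points. Igfbp7 and the endothelial median are both highest in Ly6C high macrophages of day 4, at 11.63 and 8.59, and both lower in Ly6C low macrophages of that day, at 8.09 and 5.16, while Igfbp4 is at 11.52 and 11.31.

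Within the binding protein family, per kilobase of exon, Igfbp4 made up 68.8% of the summed level in neutrophils and 75.7% and 66.1% in Ly6C low macrophages of days 2 and 4. In Ly6C high macrophages its share was 19.3%, 26.6% and 18.3% on days 1, 2 and 4. Igfbp7 held 35.1%, 34.7% and 72.3% in those 3 groups, and 6.51% and 25.8% in the Ly6C low groups. The third large share was that of Igfbp6, a binding protein that prefers IGF-II, with 41.2% in Ly6C high macrophages of day 1 and 2.16% in Ly6C low macrophages of day 4. The leading binding protein per length was therefore Igfbp4 in neutrophils and in both Ly6C low groups, and Igfbp6 or Igfbp7 in the Ly6C high groups.

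Among the other 17 genes of the IGF list, 9 reached the filter on day 4. In Ly6C low against Ly6C high cells of that day none was at least 2-fold higher and 5 were lower, with Stc1, an inhibitor of the protease that cleaves IGFBP4, at 1.71 against 5.36, and Grb10, an adaptor that dampens receptor signalling, at 7.29 against 9.05. Over all genes 2.44% were higher and 8.93% lower in this comparison, which is also the background of the PDGF, HGF, VEGF and FGF list counts of day 4. From day 2 to day 4 in Ly6C high cells 5 of 9 were higher and none lower, against 14.3% and 2% of all genes, including Igfbp3 at 4.01 and 7.96 and Igfbp5 at 6.20 and 9.40. Igf2, Igfbp3 and Stc1 reached the filter on day 4 alone and so could not come out lower. Between the subsets of day 4, Igfbp6 and Stc1 reached it in Ly6C high cells alone and so could not come out higher. The IGFBP4 protease gene Pappa had log2 values of 4.19 or less in every group.

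The PDGF ligand genes split into 2 patterns. Pdgfa and Pdgfb, which encode the classical A and B chains, differed by day, and Pdgfc, whose product is secreted in a latent form that needs cleavage, differed by subset. Pdgfa lies on chromosome 5 from 138976014 to 138997370 on the minus strand (ENSMUSG00000025856). Its log2 value was 7.13 in neutrophils, 7.07, 7.26 and 8.45 in Ly6C high macrophages on days 1, 2 and 4, and 7.65 and 8.92 in Ly6C low macrophages on days 2 and 4. Both day 4 groups were above all others. The day 4 value exceeded that of day 2 by 1.19 in Ly6C high and 1.27 in Ly6C low cells. An antisense gene, 6330403L08Rik, overlaps 2315 bases of Pdgfa and was at 5.45 to 7.15, with its 2 highest values also on day 4. Without strand its reads and those of Pdgfa cannot be told apart.

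Pdgfb had the same 2 groups on top. Its locus is on chromosome 15 from 79995874 to 80014977 on the minus strand (ENSMUSG00000000489). Log2 values were 7.52 in neutrophils, 6.44, 6.26 and 8.29 in Ly6C high macrophages on days 1, 2 and 4, and 6.91 and 8.57 in Ly6C low macrophages on days 2 and 4. Day 4 was above day 2 by 2.03 (4.07-fold) in Ly6C high and by 1.65 (3.14-fold) in Ly6C low cells. The subsets were 0.65 apart on day 2 and 0.28 on day 4. The fibroblast markers were also higher on day 4 in both subsets, 11 of 11 in each, against 14.3% and 9.23% of all genes in Ly6C high and low cells. Of these markers, 4 in Ly6C high and 7 in Ly6C low cells reached the filter on day 4 alone and so could not come out lower. The part of fibroblasts in the Pdgfa and Pdgfb values was not tested.

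Pdgfc lies on chromosome 3 from 81036416 to 81214040 on the plus strand (ENSMUSG00000028019). The log2 value was 3.21 in neutrophils, 5.89, 6.06 and 6.48 in Ly6C high macrophages on days 1, 2 and 4, and 8.05 and 8.49 in Ly6C low macrophages on days 2 and 4. Both Ly6C low values were above the 3 Ly6C high values. The subset difference was 2.00 (3.99-fold) on day 2 and 2.01 (4.02-fold) on day 4, so that its change between the days was 0.01. Within a subset the days differed by 0.43 or less between day 2 and day 4. Its range was 38.7-fold in all groups and 6.06-fold among the macrophages. The neutrophil value stood for about 9.04 reads, so the wider range rests on few reads. The antisense gene Gm16000 was at 2.96 or lower in every group.

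Per kilobase of exon, Pdgfa held 44.2% to 60.0% of the sum of the 4 PDGF ligands, the largest share in each macrophage group. In neutrophils Pdgfa held 49.5% and Pdgfb 48.5%, an order that cannot be told without values per sample. Pdgfb held from 19.9% to 33.8% in the macrophage groups. Without strand, reads of 6330403L08Rik cannot be told apart from those of Pdgfa in these shares. Pdgfc held 35.9% and 22.2% in Ly6C low cells of days 2 and 4, against 15.2%, 16.0% and 7.90% in Ly6C high cells of days 1, 2 and 4. The remaining ligand, Pdgfd, was listed at 0 in neutrophils and in Ly6C low cells of day 2 and had 7.68% in Ly6C high cells of day 4.

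The PDGF receptor genes, which mark mesenchymal and mural cells, were highest where the fibroblast markers were highest. Pdgfra was at 8.44 and 6.13 in Ly6C high and Ly6C low cells of day 4 and at 4.25 or lower in the other groups, and it is also one of the 11 fibroblast markers. For Pdgfrb the day 4 values were 9.22 and 7.01, and the others were 6.06 or lower. Of the 6 genes on the PDGF list, 5 were compared between day 2 and day 4 in Ly6C high cells and all 5 were higher on day 4, where 14.3% of all genes were higher and 2% lower. Of these, Pdgfd, Pdgfra and Pdgfrl reached the filter on day 4 alone and so could not come out lower. Ly6C low cells of day 4 were lower than Ly6C high cells in 5 of the 6 and higher in none. In that comparison Pdgfd reached the filter in Ly6C high cells alone and could not come out higher. St14 reached it in Ly6C low cells alone and could not come out lower.

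**Figure D3:**
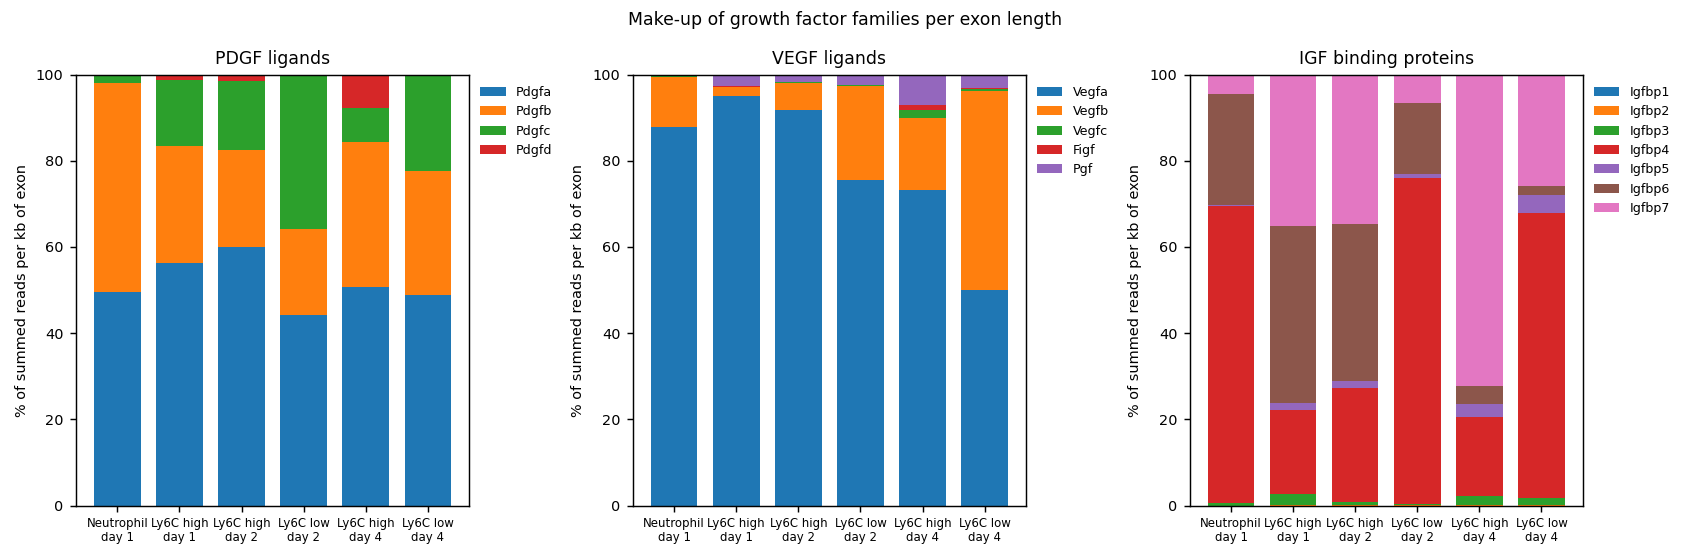
Share of the summed normalised reads per kilobase of exon (vertical axis, percent) taken by each member of the PDGF ligands, VEGF ligands and IGF binding proteins in the 6 groups (horizontal axis), from 1 authors' value per gene and group. Pdgfc takes 35.9% in Ly6C low macrophages of day 2, Vegfb 46.1% in Ly6C low macrophages of day 4, and Igfbp7 72.3% in Ly6C high macrophages of day 4.

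Hgf, the ligand of MET, had the narrowest range of the 9 genes compared when the neutrophil column is counted. It lies on chromosome 5 from 16553495 to 16620152 on the plus strand (ENSMUSG00000028864). Neutrophils had a log2 value of 9.38. The Ly6C high macrophages had 8.09, 8.19 and 8.30 on days 1, 2 and 4, and the Ly6C low macrophages had 8.06 and 9.09 on days 2 and 4. Neutrophils and Ly6C low macrophages of day 4 thus stood above the other 4 groups, which lay between 8.06 and 8.30. In Ly6C low cells day 4 was above day 2 by 1.03, which was 0.95 and under the 2-fold line after median-ratio rescaling. The range was 2.51-fold, and 2.04-fold without the neutrophil column, where that of Igf1r was narrower.

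Met, the receptor gene, was highest in Ly6C high macrophages of day 1, at 10.76, and lay between 7.41 and 9.14 in the other groups. Plau, which encodes urokinase, an activator of pro-HGF, was between 11.77 and 12.70 throughout. Of the 9 genes on the HGF list, 6 were compared between the subsets on day 4, and 1 was lower in Ly6C low cells (Spint2, an inhibitor of HGF-activating proteases, at 2.65 against 5.45) and none higher. Spint2 reached the filter in Ly6C high cells alone and so could not come out higher.

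Vegfb was lowest in Ly6C high macrophages of day 1. Its locus is on chromosome 19 from 6982473 to 6987651 on the minus strand (ENSMUSG00000024962). Its log2 value was 6.95 in neutrophils, 5.87, 6.99 and 7.53 in Ly6C high macrophages on days 1, 2 and 4, and 7.76 and 8.50 in Ly6C low macrophages on days 2 and 4. Both Ly6C low values were above the 3 Ly6C high values, by 0.77 on day 2 and 0.96 on day 4 for the same day, which is under the 2-fold line. After quantile normalization the day 4 difference was 1.14. From day 1 to day 2 in Ly6C high cells it was higher by 1.12, or 0.97 after quantile normalization.

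Vegfa, which encodes the main angiogenic ligand of the family, went the other way. Its log2 value was 12.73, 12.26 and 11.09 in the Ly6C high groups of days 1, 2 and 4, and 10.96 and 10.03 in the Ly6C low groups of days 2 and 4. Per kilobase of exon, Vegfb made up 2.18% of the summed VEGF ligands in Ly6C high macrophages of day 1, 6.36% on day 2 and 16.7% on day 4. In Ly6C low macrophages its share was 22.0% on day 2 and 46.1% on day 4, where Vegfa held 50.0%. Flt1, the receptor for VEGF-B, was at 8.59 in the Ly6C high and 4.77 in the Ly6C low group of day 4, along with the endothelial markers. Of the 10 genes on the VEGF list 9 were found, and of the 7 compared on day 4, 5 were lower in Ly6C low cells and none higher. Flt1 and Flt4 reached the filter in Ly6C high cells alone and so could not come out higher.

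Fgf2 was near the floor in every group. It lies on chromosome 3 from 37348346 to 37410108 on the plus strand (ENSMUSG00000037225). The log2 value was 0.85 in neutrophils, 1.52, 1.45 and 2.49 in Ly6C high macrophages on days 1, 2 and 4, and 1.15 and 1.96 in Ly6C low macrophages on days 2 and 4. These values stood for about 1.76 to 9.22 reads in a library, so no difference could be told at this depth. Nudt6, which overlaps Fgf2 on the opposite strand by 5199 bases, was at 2.88 to 4.04. Among the FGF list, 7 of 20 genes were compared on day 4, and 5 were lower in Ly6C low than in Ly6C high cells, including the receptor Fgfr1 at 7.22 against 8.50. Fgfr2 and Spry4 reached the filter in Ly6C high cells alone and so could not come out higher.

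**Figure D4:**
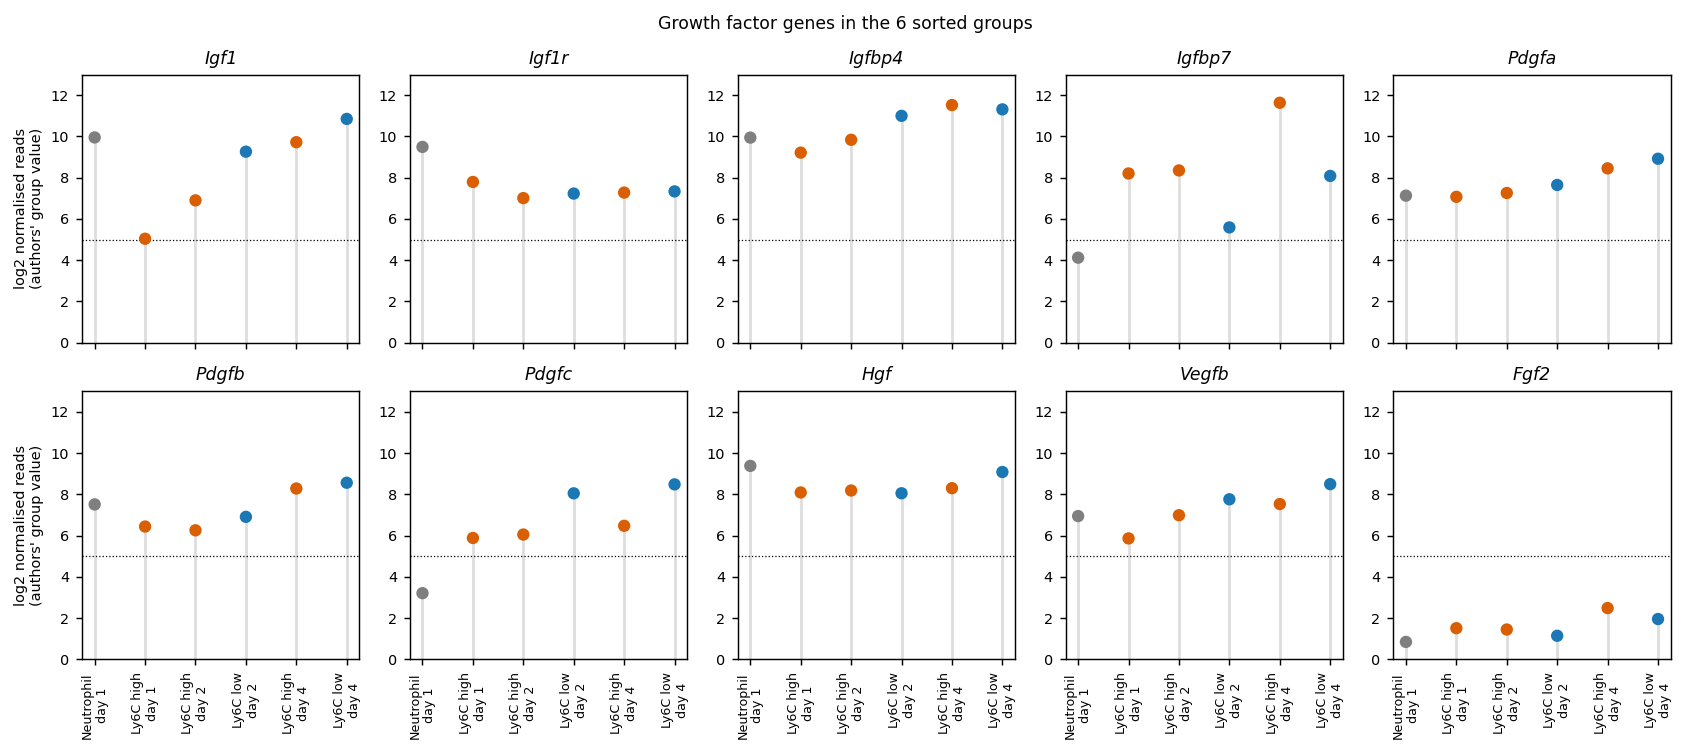
Log2 normalised reads (vertical axis) of the 10 genes in the 6 groups (horizontal axis), 1 authors' value for each gene in each group, without error bars. The dotted line marks the log2 value of 5 that a gene had to reach, and Fgf2 stays below it, with 2.49 as its highest value.

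Per kilobase of exon, the order of the 10 genes changed between groups. Igfbp4 ranked first in neutrophils and both Ly6C low groups, and Igfbp7 ranked first in the 3 Ly6C high groups. Igf1 ranked 2nd in neutrophils, 9th in Ly6C high macrophages of day 1 and 4th in Ly6C low macrophages of day 4. Vegfb ranked 2nd in both Ly6C low groups. Fgf2 was last in each of the 6.

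Between Ly6C high macrophages and neutrophils on day 1, 9 of the 10 genes were compared and 7 were at least 2-fold apart. Higher in macrophages were Igfbp7 by 4.08 and Pdgfc by 2.68, both of which passed the filter only through the macrophage column. The 5 lower genes were Igf1 by 4.91, Igf1r by 1.70, Hgf by 1.29, Vegfb by 1.08 and Pdgfb by 1.07. Over the 11890 genes compared 32.7% were apart, 16.6% higher and 16.1% lower. The median over the 9 was -1.07 on the log2 scale and that of all genes 0.08.

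From day 1 to day 2 in Ly6C high macrophages, Igf1 and Vegfb were higher, and none of the 9 was lower. Among 11232 genes 2.51% were apart, 1.41% higher and 1.1% lower. The median of the 9 was 0.17 and that of all genes -0.01.

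From day 2 to day 4 in Ly6C high macrophages 5 of 9 were higher and none lower: Igfbp7 by 3.28, Igf1 by 2.82, Pdgfb by 2.03, Igfbp4 by 1.68 and Pdgfa by 1.19. Over all genes 16.3% were apart, 14.3% higher and 2% lower. The median was 1.19 for the 9 and 0.01 for all. Of the genes apart, 87.7% were higher, or 62.0% after quantile normalization, under which 5 of the 9 were still higher and none lower. All 11 fibroblast markers, all 10 endothelial markers and all 8 pericyte and smooth muscle markers were also at least 2-fold higher on day 4. The median differences were 5.34 for fibroblast and 2.76 for endothelial markers. On these lists, 4 fibroblast, 2 endothelial and 4 pericyte and smooth muscle markers reached the filter on day 4 alone. Such markers could not come out lower. The part of stromal cells in these counts was not tested.

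Across the whole span from day 1 to day 4, 6 of 9 were higher in Ly6C high cells and none lower, with Igf1 25.6-fold, Igfbp7 10.8-fold, Igfbp4 4.94-fold, Pdgfb 3.59-fold, Vegfb 3.17-fold and Pdgfa 2.60-fold higher. All genes showed 21.6% apart, with 17.6% higher and 3.97% lower. The median was 1.67 against 0.01. Quantile normalization lowered the share of higher genes among those apart from 81.6% to 56.9%, and 6 of the 9 were higher under it as well. This comparison shares its columns with the 2 before it.

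Between the subsets on day 2, Igf1, Pdgfc and Igfbp4 were higher in Ly6C low cells and Igfbp7 was lower, out of 9. Over all genes 7.74% were apart, 3.71% higher and 4.03% lower. The median was 0.65 for the 9 and -0.03 for all. Of the pathway genes on the 5 lists, none of 22 compared was higher and 8 were lower, or 1 and 8 after quantile normalization. Among the 18 pathway genes past the filter in both groups, 0 were higher and 4 lower. Of the stromal markers compared, 7 of 7 for fibroblasts, 5 of 8 for endothelium and 2 of 4 for pericytes and smooth muscle were lower in Ly6C low cells, and Cspg4 of the last list was higher by 2.14. On these lists 3, 3 and 1 markers reached the filter in Ly6C high cells alone and so could not come out higher. The part of stromal cells in these counts was not tested.

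Between the subsets on day 4, Pdgfc and Igf1 were higher in Ly6C low cells and Igfbp7 was lower, out of 9. All genes had 11.4% apart, 2.44% higher and 8.93% lower. The median was 0.47 for the 9 and -0.03 for all. The share of higher genes among those apart was 21.4%, or 38.2% after quantile normalization, which added Vegfb to the 2 higher genes. None of the 35 pathway genes compared was higher and 21 were lower, and of the 26 past the filter in both groups 14 were lower. With the values as deposited, 0 of 18 pathway genes past the filter in both groups on day 2 and 0 of 26 on day 4 were higher. Another 4 on day 2 and 8 on day 4 reached it in Ly6C high cells alone and so could not come out higher. St14 reached it in Ly6C low cells alone on day 4 and was higher by 0.99, just under the line. The part of stromal cells in these counts was not tested.

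From day 2 to day 4 in Ly6C low macrophages, Igfbp7 was higher by 2.49, Pdgfb by 1.65, Igf1 by 1.59, Pdgfa by 1.27 and Hgf by 1.03, which is 5 of 9 with none lower. Over all genes 11.4% were apart, with 9.23% higher and 2.16% lower. The median was 1.03 for the 9 and 0.03 for all. Of the genes apart, 81.1% were higher, or 66.7% after quantile normalization. Of the pathway genes 13 of 28 were higher and 1 was lower, the latter being Igfbp6 at 6.82 and 4.39. Of the 17 past the filter on both days 4 were higher. The fibroblast markers were higher in 11 of 11, pericyte and smooth muscle markers in 4 of 5 and endothelial markers in none of 5. Of 6 myogenic markers found, 2 were compared, Myog and Cdh15. They were at 5.98 and 6.07 on day 4 and listed at 0 on day 2, so the size of the difference depends on the floor. Myog, Cdh15, 7 fibroblast and 2 pericyte and smooth muscle markers reached the filter on day 4 alone. Such markers could not come out lower. The part of these cells in the counts was not tested.

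For the difference between the subsets on day 4 minus that on day 2, Igf1 and Igfbp4 were at least 2-fold lower and none of the 9 was higher. Of all genes 7.06% passed, 0.967% higher and 6.09% lower. The median was -0.16 for the 9 and -0.01 for all. Hgf was at 0.92, or 1.01 and past the line after quantile normalization. Among the genes past the line 13.7% were higher, or 30.4% after quantile normalization.

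**Figure D5:**
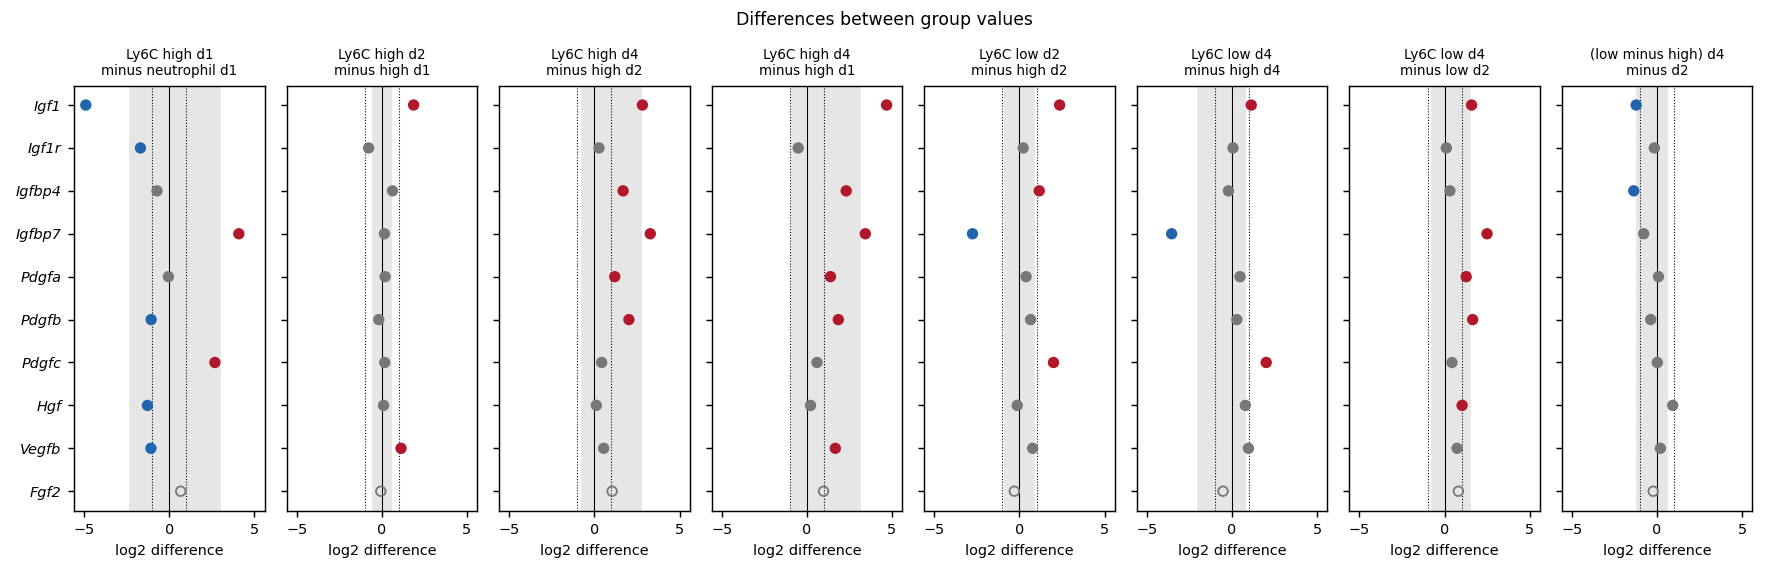
Log2 differences (horizontal axes) of the 10 genes (vertical axis) in the 8 comparisons, with no error bars. Red and blue points are at least 2-fold higher or lower, open points are Fgf2, which was not compared, dotted lines mark 2-fold and grey bands hold the 5th to 95th percentile of all genes compared. Igf1 is at -4.91 for Ly6C high macrophages minus neutrophils and between 1.13 and 4.68 in the 6 other pairs of groups, and Igfbp7 is at -2.76 and -3.55 between the subsets.

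The profiles were also compared with those of 11275 protein-coding genes by the root mean square difference of the log2 values after centring each gene over the 6 columns. These distances rest on 6 values per gene and are a description. For Igf1 the nearest gene was the DNA glycosylase Neil3 at 0.19, followed by Cacna1a and Kif18b at 0.38. In Ly6C high macrophages of days 1 and 2, Neil3 was at 0.69 and 2.65 and Kif18b at 0.11 and 1.58. Those values are near the floor, so the distances of Neil3 and Kif18b rest in part on few reads. For Igfbp7 the nearest genes were Col4a1, a chain of basement membrane collagen, at 0.17, and Cyr61 and Prkcdbp at 0.21. Col4a1 was at 9.52, 9.62 and 12.93 on the log2 scale in the Ly6C high groups of days 1, 2 and 4, with 7.01 and 9.41 in the Ly6C low groups of days 2 and 4.

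Pdgfc had no close match, with the chemokine Ccl8 nearest at 0.50 and Ctla2b and Slco2b1 at 0.61 and 0.64. Vegfb had the closest of all in Sort1, at 0.05, and then Ppargc1b at 0.12 and Hrsp12 at 0.13. Igf1r was nearest to Tgoln1 (0.15), Igfbp4 to Kdelc2 (0.15), Pdgfa to Itm2b (0.11), Pdgfb to Mylip (0.10) and Hgf to Cxcr4 (0.12), and Fgf2, below the filter, to Vasn (0.08). The distance for Fgf2 rests on few reads. Among the 10 genes the closest pairs were Igfbp4 with Vegfb at 0.40, Igfbp4 with Pdgfa at 0.41 and Pdgfa with Pdgfb at 0.45.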

How the data were processed

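Per the labels' protocols, RNA was sequenced on a HiSeq instrument from poly-A libraries made with a TruSeq kit. TopHat2 2.0.7, Cufflinks 2.0.2 and the mm10 build are named in the submitters' processing notes. What each did, the annotation and the normalization were not given in the sources used here. Deposited by the authors were log2 normalised reads in 6 columns, 1 a group, with a floor of 0. The samples of a group are pooled in its column, read from the low values as a mean of log2 values. Depth per sample is not known beyond the worth of a read, 0.412 to 1.03 units on the commonest ladder of low values in each column. That ladder held 12.3% to 46.0% of the low values of a column, so numbers of reads are estimates. The 17 samples entered through these columns alone, so no test, SD or paired analysis was possible.

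Differences of columns were taken with Python 3.11.15, pandas 2.3.3 and NumPy 2.4.6, and the code recovered known changes in simulated data. There were 7 comparisons of pairs and 1 of the difference between subset differences. Levels of different genes were compared only per kilobase of exon, from GENCODE M21 on GRCm38 (36308 of 38087 identifiers matched). Such levels and shares use the linear value of each log2 mean. Members and gene lists (5 pathway and 10 marker lists) were chosen with earlier results of these data known. Genes named are the 10, genes of those lists and the 3 nearest profiles of each. Alternatives were pseudocounts of 0.1 and 5, median-ratio and quantile scaling and 3 other filters on low values.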

Additional observations from a re-analysis of the deposited data

How the results depend on the processing

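Of the 56 counts of genes apart recomputed under the 7 alternatives, 54 stayed within 1.5 times the reported count. The exceptions were both in Ly6C high macrophages from day 1 to day 2, where the count of 2 was 1 after quantile normalization and 0 with a log2 minimum of 7, a filter that leaves out Igf1 and Vegfb there. Among 503 single differences, none that was at least 2-fold apart in either setting changed direction. Smaller differences were not checked for direction. Those of Vegfb (Ly6C high, day 1 to day 2, 0.97 after quantile normalization) and Hgf (Ly6C low, day 2 to day 4, 0.95 after median-ratio rescaling) dropped under 2-fold. Fgf2 passed it without a filter (1.04, Ly6C high, day 2 to day 4), and Vegfb (1.14, subsets on day 4) and Hgf (1.01, change of the subset difference) after quantile normalization, where the cause was not tested. The median of all genes shifted under quantile normalization to -0.13 for day 4 against day 2 and -0.14 for day 4 against day 1 of Ly6C high cells. No pathway gene that was apart changed direction under either rescaling. No paired analysis was possible because the table holds 1 value per group, and leaving out single replicates was not run for the same reason. Read depth limits Fgf2, at an estimated 9.22 reads or fewer in a library, and Pdgfc in neutrophils, at an estimated 9.04.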

Other observations

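Some marker genes of other cell types did not follow the rest of their lists. Cspg4, on the pericyte list, had log2 values of 6.62 in neutrophils, 4.42, 6.30 and 7.54 in Ly6C high macrophages on days 1, 2 and 4, and 8.44 and 8.63 in Ly6C low macrophages on days 2 and 4, so it was higher in Ly6C low cells on both days, as Igf1 and Pdgfc were, while Rgs5 of the same list was at 10.98 against 7.29 on day 4. Vwf, on the endothelial list, was at 8.93 in neutrophils and 4.80 in Ly6C high macrophages of day 1, and at 8.45 and 8.57 in the high and low subsets of day 4, where Cdh5 was at 10.56 and 6.25. Cd3d, a T cell gene, was at 5.84 in neutrophils and 0.56 in Ly6C high macrophages of day 1. The platelet chemokines Pf4 and Ppbp were at 14.01 and 13.81 in Ly6C high macrophages of day 1. They were the 2 of 10 platelet and megakaryocyte genes that reached 5 in that group. The platelet gene Gp6 was at 0 in all 6 columns. These genes were picked after their values were seen.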
